A study of Homo sapiens with 8 samples.

Results

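Fc receptors bind the constant part of antibodies. Here 10 genes were followed, namely the genes for the IgG receptors *FCGR1A*, *FCGR1B*, *FCGR2A*, *FCGR2B*, *FCGR2C* and *FCGR3A*, the shared signalling chain *FCER1G*, the IgE receptor *FCER2*, the IgA receptor *FCAR* and the IgG carrier *FCGRT*. They were picked by name, with no threshold on any value, from 57722 genes shared by the count tables, and all 10 were found in both tables.

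The data are polyA RNA-seq counts from Molm13 and THP1, human AML lines of monocytic type with MLL (KMT2A) fusions. Cells carried a control shRNA (shCtrl; genotype labelled WT) or an shRNA against the arginine methyltransferase gene *PRMT9* (shPRMT9; genotype labelled PRMT9 knockdown), and all 4 groups, controls included, received doxycycline (Dox). Each group held 2 libraries, 8 in all, with 18720950 to 27356870 counts each. The comparison asks how *PRMT9* knockdown (KD) changes gene expression in leukemia cells. No dose or time of Dox is given in the labels. Library names in the THP1 groups also carry the letters OCI, whereas their other labels give THP1. The shPRMT9 libraries are numbered 1 and 2, as the study also numbers its hairpins, so that replicate and hairpin cannot be told apart. Nothing states that libraries came from separate cultures, so that p-values measure the spread between these libraries, which may be technical.

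Most IgG receptors of myeloid cells start signals that lead to phagocytosis and cytokine release. Activating receptors use a tyrosine motif called an ITAM, carried either in their own tail (*FCGR2A*, *FCGR2C*) or in the partner chain encoded by *FCER1G*. FCGR1A and FCAR need this chain, and FCGR3A can use it. *FCGR2B* encodes the inhibitory receptor, whose ITIM motif recruits phosphatases, and *FCGRT* encodes the heavy chain of the neonatal receptor, which pairs with β2-microglobulin and returns IgG from endosomes to the cell surface. IFN-γ is the classic inducer of *FCGR1A* in monocytes, and PU.1 (*SPI1*) is the myeloid factor that binds near the starts of many of these genes.

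The upstream sequences of 4 members are shown because they place the best-known elements of this gene family beside its measured changes. All are the 130 bases before the RefSeq start on GRCh38.p14, 5′ to 3′ on the plus strand, at chr1:149782564-149782693 for *FCGR1A*, chr1:161505327-161505456 for *FCGR2A*, chr1:161663013-161663142 for *FCGR2B* and chr1:161215165-161215294 for *FCER1G*. Capitals mark matches, on either strand, to an IFN-γ-activated site, GAS (TTCNNNGAA), a PU.1 core (GAGGAA) or an interferon-stimulated response element (ISRE: GAAA, any 2 bases and GAAA).
FCGR1A: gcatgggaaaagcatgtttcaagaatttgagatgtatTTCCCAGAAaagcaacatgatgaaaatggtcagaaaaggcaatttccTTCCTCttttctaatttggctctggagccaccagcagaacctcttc
FCGR2A: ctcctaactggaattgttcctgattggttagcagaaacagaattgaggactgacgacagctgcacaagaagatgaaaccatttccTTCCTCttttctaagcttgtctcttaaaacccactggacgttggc
FCGR2B: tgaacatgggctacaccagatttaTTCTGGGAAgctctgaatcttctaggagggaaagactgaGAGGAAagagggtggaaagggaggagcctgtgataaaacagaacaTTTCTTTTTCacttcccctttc
FCER1G: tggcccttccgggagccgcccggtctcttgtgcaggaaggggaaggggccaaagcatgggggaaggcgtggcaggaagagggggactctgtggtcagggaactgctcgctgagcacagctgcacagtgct

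*FCGR1A* held a GAS match with its first base 93 bases before the start and a PU.1 core 46 bases before it. *FCGR2A* held a PU.1 core 45 bases before its start and shared a 20-base run around this core with *FCGR1A*. *FCGR2B*, which has a further RefSeq start upstream, held a GAS match, a PU.1 core and an ISRE match 106, 67 and 22 bases before the start shown, the one nearest its start in the count table. None of these letters was found in the *FCER1G* window. Over 250 bases upstream in 35116 RefSeq promoter windows, a GAS match was present in 6.57%, a PU.1 core in 23.6% and an ISRE match in 3.02%. The members had 13 such windows for 7 genes, while *FCGR1B*, *FCGR2C* and *FCAR* had no entry. Over these 250 bases *FCGR1A* and *FCGR2A* held only the matches named above. The *FCGR2B* window shown held 2 GAS matches, 2 PU.1 cores and 1 ISRE match. In 1 window *FCER2* held a GAS and an ISRE match, and in 1 window *FCGR3A* held an ISRE match. The remaining windows, with those of *FCER1G* and *FCGRT*, held none. A match is a description of letters and not of binding, which was not measured.

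*PRMT9*, the targeted gene, was lower in every shPRMT9 library. It had 332 and 289 counts in shCtrl Molm13 and 41 and 56 after KD, a log2 fold change of -2.68 ± 0.14 (SE). In THP1 it had 317 and 352 counts in shCtrl and 60 and 68 after KD, a log2 fold change of -2.29 ± 0.13. Of 13 monocyte and myeloid markers, only *FCN1* had at most 3 counts in the shCtrl libraries of either line, and *LYZ*, the gene for lysozyme, was highest. *CD14* had only 4 and 6 counts in shCtrl Molm13 and 24 in each shCtrl THP1 library.

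The 2 lines started from different sets of Fc receptors. RPKM, read counts scaled by library size and exon length, allows levels to be compared between genes. In shCtrl Molm13 the highest levels were those of *FCGR2B* (11.9 ± 0.491 RPKM, SD, n = 2), *FCGR2A* (10.1 ± 0.13) and *FCGR2C* (9.23 ± 0.315), followed by *FCGRT* (7.05 ± 0.0422) and *FCGR1A* (3.66 ± 0.117). *FCER1G* (1.11 ± 0.298), *FCER2* (0.925 ± 0.248) and *FCGR1B* (0.486 ± 0.132) lay lower, and the SDs of the first 2 of these overlap. *FCGR3A* and *FCAR* had 0 counts in both libraries, where 3 counts is taken as the limit that a count of 0 allows.

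In shCtrl THP1 the order was led by *FCER1G* (34.3 ± 0.0724 RPKM, n = 2) and *FCGRT* (17.5 ± 0.187), followed by *FCGR2A* (6.95 ± 0.184), *FCGR1A* (3.07 ± 0.0444) and *FCGR1B* (1.6 ± 0.0359). The other 5 members lay below 1 RPKM, from 0.371 ± 0.143 for *FCER2* to 0.0261 ± 0.00135 for *FCGR3A*, and *FCER2*, *FCGR2C* and *FCAR* lay within their spread of each other. THP1 thus carried the activating *FCGR2A* with little *FCGR2B* (0.161 ± 0.0203), whereas Molm13 carried both.

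**Figure D1:**
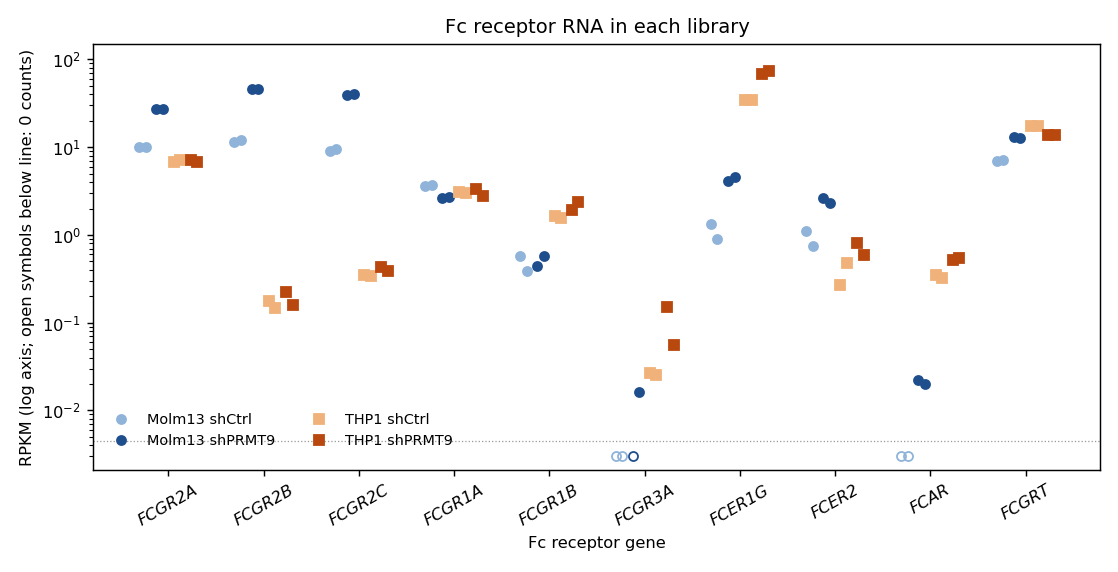
RPKM on a log axis for the 10 Fc receptor genes in each of the 8 libraries, 2 points per group, with open symbols below the dotted line for 0 counts. *FCGR2B* and *FCGR2C* sit far higher in Molm13, *FCER1G* far higher in THP1, and the shPRMT9 points for *FCGR2A*, *FCGR2B* and *FCGR2C* in Molm13 lie well above shCtrl.

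Between the shCtrl groups, 6 of 9 tested members were differentially expressed genes (DEGs), meaning that they had an FDR below 0.05 in the quasi-likelihood test of edgeR, differed by over 1.5-fold and passed 1 RPKM in some library. Of the 6, 3 were higher and 3 lower in THP1. Of all 19288 genes tested, 44.4% were DEGs in this contrast, 17.5% higher and 26.9% lower in THP1, and 82.8% passed by FDR alone, as all 9 members did. *FCER1G* had 26 and 17 counts in Molm13 and 850 and 912 in THP1, and was 30.6-fold higher in THP1 (log2 difference 4.94 ± 0.14 SE, edgeR FDR = 6.4e-54). *FCGR2B* had 1563 and 1591 counts in Molm13 and 30 and 27 in THP1, a log2 difference of -6.20 ± 0.10 (edgeR FDR = 3.3e-74). *FCGR2C* (log2 difference -4.73) and *FCER2* (-1.30) were also lower in THP1, and *FCGR1B* (1.71) and *FCGRT* (1.31) higher. With near-identical genes summed, the *FCGR1* value was 0.12 (edgeR FDR = 0.22), which ends the *FCGR1B* call, and the *FCGR2* value was -2.08, against -0.53 for *FCGR2A* alone. *FCAR* had 21 counts in each shCtrl THP1 library against 0 in Molm13, at least 5.26-fold higher against a floor of 3 counts per library. Each line has its own table, and line and table cannot be told apart in this contrast.

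In Molm13, *PRMT9* KD raised the low-affinity IgG receptors of the *FCGR2* family, activating and inhibitory alike, together with *FCER1G*, *FCER2* and *FCGRT*. These 6 of 8 tested members were DEGs by edgeR and all 6 rose (also 6 up and 0 down by DESeq2, and 1 down at an unadjusted p below 0.05), whereas 11.4% of the 16446 genes tested rose and 11.3% fell as DEGs (22.8% in either direction). The median log2 fold change of the 8 members was 1.43, against 0 over all genes tested. *FCGR3A* (0, 0, 0 and 1 counts) and *FCAR* (0, 0, 1 and 1) had too few counts to be tested.

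*FCGR2B*, the inhibitory receptor, had 1563 and 1591 counts in shCtrl and 5843 and 6511 after KD in Molm13. Both KD libraries lay far above both controls, at 46.2 ± 0.373 against 11.9 ± 0.491 RPKM, a log2 fold change of 1.97 ± 0.03 (SE, edgeR FDR = 6.6e-39). It lies at chr1:161663147-161678654 on the plus strand. Groups without overlap were common with 2 libraries each, at 81.9% of the genes tested in Molm13 and 66.0% in THP1.

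*FCGR2A*, the activating receptor most widely present on myeloid cells (chr1:161505430-161524013, plus strand), had 1082 and 1058 counts in shCtrl and 2719 and 3099 after KD in Molm13. The groups did not overlap, and the log2 fold change was 1.44 ± 0.04 (edgeR FDR = 4.6e-31). *FCGR2C*, annotated as a pseudogene that is polymorphic and intact in some people (chr1:161581339-161605662, plus strand), had 658 and 663 counts in shCtrl and 2635 and 3042 after KD. Its groups did not overlap either, with a log2 fold change of 2.10 ± 0.05 (edgeR FDR = 3e-35).

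The 3 *FCGR2* genes share sequence. Of all 50-base windows in the exons of *FCGR2C*, 44.9% also occur in another gene, mostly in *FCGR2A* (21.9%) and *FCGR2B* (21.5%), whereas 16.7% of the *FCGR2A* and 16.2% of the *FCGR2B* windows do. How the counting split such reads is not given in the sources used here, and the part of *FCGR2C* counts that came from its neighbours was not tested. In THP1, where *FCGR2A* had 930 and 1039 counts in shCtrl, *FCGR2C* had 32 and 34. Summed over the *FCGR2* genes, the log2 fold change in Molm13 was 1.85 ± 0.03 (edgeR FDR = 4.8e-40). With near-identical genes counted once in this way, 4 Fc receptor entries were DEGs in Molm13, all higher after KD.

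Within the *FCGR2* family the mix of reads in Molm13 moved from *FCGR2A* to the other members. *FCGR2A* took 32.8% and 31.9% of the family's counts in shCtrl and 24.3% and 24.5% after KD. *FCGR2B* took 47.3% and 48% in shCtrl and 52.2% and 51.5% after KD, so that for both genes the groups did not overlap. In THP1 *FCGR2A* took between 92.6% and 94.5% of the family's counts in the 4 libraries.

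**Figure D2:**
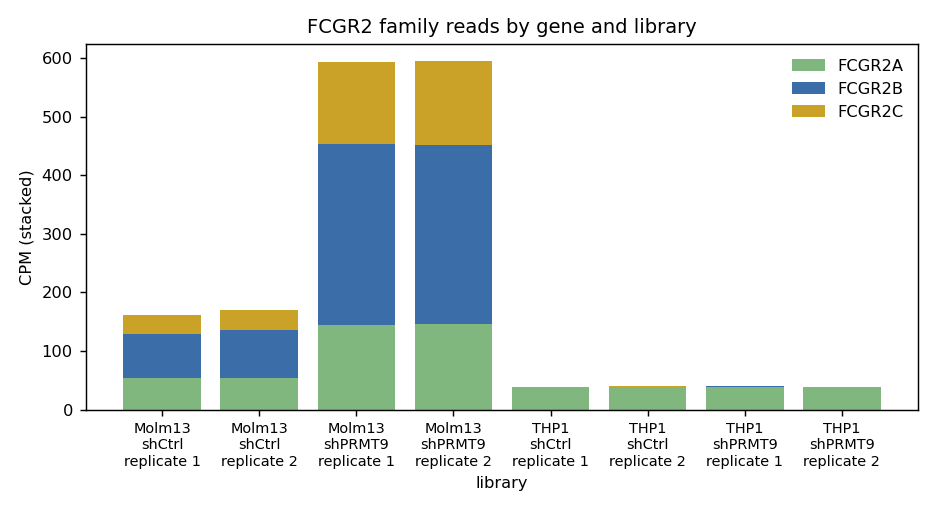
Stacked CPM (counts scaled by library size alone) of *FCGR2A*, *FCGR2B* and *FCGR2C* in each of the 8 libraries. Bars rise in both shPRMT9 libraries of Molm13, with *FCGR2B* at 308 ± 2.48 CPM against 78.9 ± 3.26, and stay level in THP1, where *FCGR2A* makes up nearly the whole bar.

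*FCER1G*, the ITAM chain (chr1:161215234-161220699, plus strand), rose from a low level in Molm13. It had 26 and 17 counts in shCtrl and 75 and 95 after KD, with no overlap and a log2 fold change of 1.98 ± 0.24 (edgeR FDR = 6e-10). Even after KD its level (4.37 ± 0.361 RPKM, n = 2) stayed below that of shCtrl THP1. The study lists *FCER1G* among its *PRMT9* KD signature genes, chosen on these libraries, so its rise is not independent evidence.

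*FCER2*, which encodes the low-affinity IgE receptor CD23 of B cells and activated monocytes (chr19:7688758-7702146, minus strand), had 55 and 36 counts in shCtrl and 122 and 120 after KD in Molm13. Both KD libraries lay above both controls (log2 fold change 1.41 ± 0.18, edgeR FDR = 4.8e-09). *FCER2* and *FCGR2B* are also B-cell genes. The summed level of 8 B-cell markers was 103 to 106 CPM in shCtrl Molm13 and 116 to 123 after KD, mostly *BANK1* and *PAX5*. The defining B-cell genes *MS4A1* and *CD79A* had at most 7 counts in any Molm13 library, and *MS4A1* had 0 in each.

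*FCGRT* (chr19:49506816-49526333, plus strand) had 598 and 579 counts in shCtrl and 1027 and 1116 after KD in Molm13, a log2 fold change of 0.87 ± 0.06 (edgeR FDR = 1e-17). *B2M*, the gene for its partner β2-microglobulin, had a log2 fold change of 0.46 there, with 13169 and 12669 counts in shCtrl and 16381 and 19308 after KD. This is below the fold limit for a DEG, although the groups did not overlap.

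The high-affinity receptor *FCGR1A* (chr1:149782671-149792518, plus strand) moved the other way in Molm13. It had 219 and 220 counts in shCtrl and 150 and 174 after KD, with no overlap and a log2 fold change of -0.44 ± 0.11 (edgeR FDR = 0.00046), short of the fold limit of 1.5. By FDR alone, 66.9% of the genes tested in Molm13 passed. *FCGR1B*, a near copy at chr1:121087345-121096310 on the plus strand that RefSeq lists as a transcribed pseudogene, had 40 and 26 counts in shCtrl and 28 and 41 after KD. Its groups overlapped (log2 fold change 0.06 ± 0.27, edgeR FDR = 0.85). Of the 50-base exon windows of *FCGR1A*, 73.6% occur in another gene, as do 44.8% of those of *FCGR1B*, so the split of counts between them is uncertain. With these copies summed, the log2 fold change in Molm13 was -0.36 (edgeR FDR = 0.00098).

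**Figure D3:**
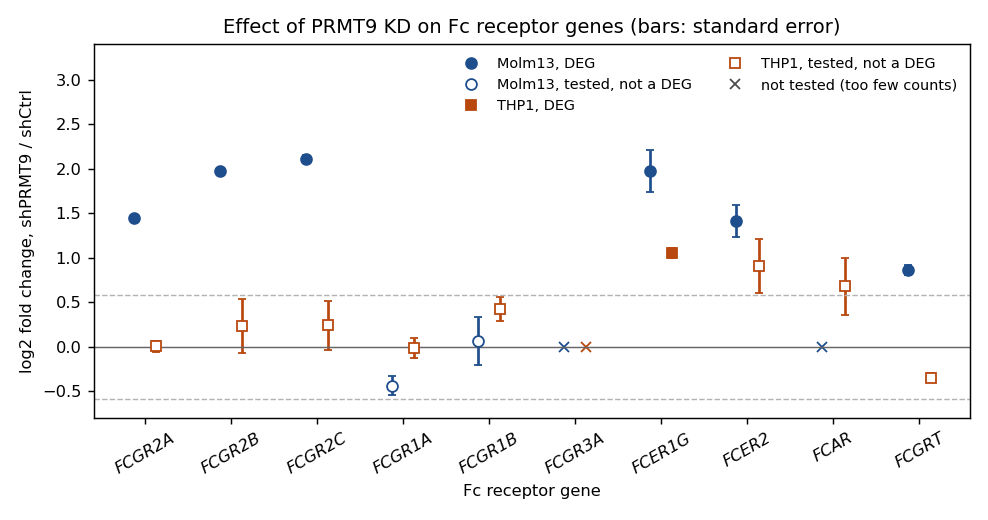
Log2 fold change of shPRMT9 against shCtrl with its standard error for each Fc receptor gene, circles for Molm13 and squares for THP1, filled for DEGs. Dashed lines mark the 1.5-fold limit and crosses at 0 mark genes with too few counts for a test. In Molm13 the 6 DEGs lie between 0.87 and 2.10, whereas in THP1 *FCER1G* at 1.05 is the only DEG.

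In THP1, *FCER1G* rose again and the *FCGR2* genes did not pass the test. *FCER1G* was the only DEG among 9 tested members, where 3.83% of the 16294 genes tested rose and 2.39% fell as DEGs (6.22% in either direction). By FDR alone 4 members passed, as did 37.6% of all genes. It had 850 and 912 counts in shCtrl and 1647 and 1768 after KD. Both KD libraries lay above both controls, at 71.3 ± 4.24 against 34.3 ± 0.0724 RPKM, with a log2 fold change of 1.05 ± 0.06 (edgeR FDR = 6.5e-15). *FCER1G* was the highest member per length in all 4 THP1 libraries.

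*FCGR2A* had 930 and 1039 counts in shCtrl THP1 and 948 and 899 after KD. The groups overlapped, and the log2 fold change of 0.00 ± 0.06 (edgeR FDR = 0.98) had a 95% interval from -0.11 to 0.12. *FCGR2B* (30, 27, 37 and 26 counts) and *FCGR2C* (32, 34, 39 and 34) were low in every THP1 library, with log2 fold changes of 0.24 ± 0.30 and 0.24 ± 0.27. For *FCGR2B* the 95% interval ran from -0.36 to 0.83, so that a change of the size seen in Molm13 lies outside it.

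*FCGRT* went down in THP1, from 1884 and 1997 counts to 1443 and 1414, with no overlap and a log2 fold change of -0.35 ± 0.05 (edgeR FDR = 9.2e-07), which is below the fold limit. *B2M* rose in the same cells, from 16417 and 17437 counts to 34890 and 33042 (log2 fold change 1.10 ± 0.03, edgeR FDR = 6.8e-22). The heavy chain and its partner thus had changes of opposite sign in THP1 and of the same sign in Molm13.

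*FCGR1A* had 239 and 252 counts in shCtrl THP1 and 253 and 203 after KD, and the groups overlapped (log2 fold change -0.01 ± 0.11, edgeR FDR = 0.95). *FCGR1B* had 141 and 147 counts in shCtrl and 163 and 199 after KD, a log2 fold change of 0.42 ± 0.13 (edgeR FDR = 0.012) that is below the fold limit. Its FDR was 0.22 without shPRMT9 library 2 and 0.12 by DESeq2. *FCER2* had 17 and 32 counts in shCtrl and 50 and 36 after KD (log2 fold change 0.91 ± 0.30, edgeR FDR = 0.019) and stayed under 1 RPKM. Without any one THP1 library the *FCER2* value ranged from 0.57 to 1.36. The FDR rose to 0.21 without shCtrl library 1 and to 0.19 without shPRMT9 library 1, and it was 0.14 by DESeq2. The myeloid IgA receptor *FCAR* (chr19:54874248-54890472, plus strand) had 21 and 21 counts in shCtrl and 31 and 32 after KD (log2 fold change 0.68 ± 0.32, edgeR FDR = 0.097). *FCGR3A*, the receptor of NK cells and of some monocytes (chr1:161541759-161550737, minus strand), had 2 and 2 counts in shCtrl and 11 and 4 after KD and was not tested.

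The effect of *PRMT9* KD differed between the lines for 5 of 9 members, all with the smaller or opposite change in THP1. Over all 19288 genes, 8.78% differed in this direction, 9.01% in the other and 17.8% in either as DEGs, and 42.2% passed by FDR alone. The difference, as the log2 fold change in THP1 minus that in Molm13, was -1.43 ± 0.07 for *FCGR2A*, -1.72 ± 0.27 for *FCGR2B*, -1.85 ± 0.25 for *FCGR2C*, -1.20 ± 0.08 for *FCGRT* and -0.92 ± 0.24 for *FCER1G*. Without shCtrl library 2 of Molm13, which had 17 *FCER1G* counts, the *FCER1G* difference was -0.71 (edgeR FDR = 0.051). For *FCER2* the difference was -0.50 ± 0.36 (edgeR FDR = 0.28), so that its change was not shown to differ between the lines. *FCGR1A* differed by 0.44 ± 0.16 (edgeR FDR = 0.018), below the fold limit.

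Some neighbours of the receptor genes on chromosome 1 also rose in Molm13. From the start of *FCER1G* to 100 kb past *FCGR2B*, a stretch of 563 kb with 35 annotated genes, 17 were tested in Molm13, of which 9 rose and 1 fell as DEGs, against 11.4% up and 11.3% down over all genes. Among the 13 tested genes that are not members, 5 rose, and all 5 lie between *FCGR2A* and *DUSP12*. DESeq2 called the same number up and none down.

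*HSPA7*, a heat shock pseudogene between *FCGR2C* and *FCGR2B*, had 335 and 332 counts in shCtrl and 1592 and 1704 after KD in Molm13. With a log2 fold change of 2.31 ± 0.06 (edgeR FDR = 2.3e-32) it exceeded the value of every tested member. *HSPA6*, its protein-coding near copy beside *FCGR2A*, had 22 and 29 counts in shCtrl and 89 and 66 after KD (log2 fold change 1.60 ± 0.24, edgeR FDR = 1.8e-07). Reads of *HSPA6* and *HSPA7* may be shared, and the split was not tested. Each starts shortly after a receptor gene ends on the same plus strand. *HSPA6* starts at 161524540 and *FCGR2A* ends at 161524013, while *HSPA7* starts at 161606291 and *FCGR2C* ends at 161605662. Whether their counts include reads that run on from these receptor genes was not tested.

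Past *FCGR2B*, the Fc receptor-like genes *FCRLA* and *FCRLB* rose in Molm13 too. *FCRLA* had 61 and 56 counts in shCtrl and 144 and 161 after KD (log2 fold change 1.38), and *FCRLB* had 124 and 97 in shCtrl and 225 and 228 after KD (1.04). The ribosomal protein pseudogene *RPL31P11* rose less (0.81). The next expressed genes outward did not rise. *DUSP12* (log2 fold change -0.34) and *ATF6* (-0.54) were lower after KD, by less than the fold limit, as was *TOMM40L* (-0.57) next to *FCER1G*. The pseudogene *RRM2P2*, between *FCER1G* and *FCGR2A*, fell by edgeR (log2 fold change -0.69, FDR = 0.0036) but did not pass by DESeq2 (FDR = 0.086).

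In THP1 none of the 9 tested non-members of this stretch was a DEG by edgeR or DESeq2. Over all genes tested there, 6.22% were DEGs by edgeR. At an unadjusted p below 0.05, 2 of the 9 were higher. Of the 5 non-members that rose in Molm13, only *HSPA6* had enough counts to be tested in THP1. *HSPA6* had 18 and 21 counts in shCtrl and 19 and 22 after KD, whereas *HSPA7* had at most 7 counts and *RPL31P11* had 0 in each library. *FCRLA* had 3 and 3 counts in shCtrl THP1 and 4 and 1 after KD. *FCRLB* had 6 and 8 in shCtrl and 9 and 9 after KD. The difference between the lines was -1.43 ± 0.44 for *HSPA6* (edgeR FDR = 0.0055) and -1.94 ± 0.64 for *HSPA7* (edgeR FDR = 0.0094). It was -1.53 ± 0.91 for *FCRLA* (edgeR FDR = 0.18) and -0.58 ± 0.55 for *FCRLB* (edgeR FDR = 0.45). For *RPL31P11*, with 0 counts in THP1, it had no usable estimate. A difference between the lines was thus not shown for *FCRLA*, *FCRLB* and *RPL31P11*.

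**Figure D4:**
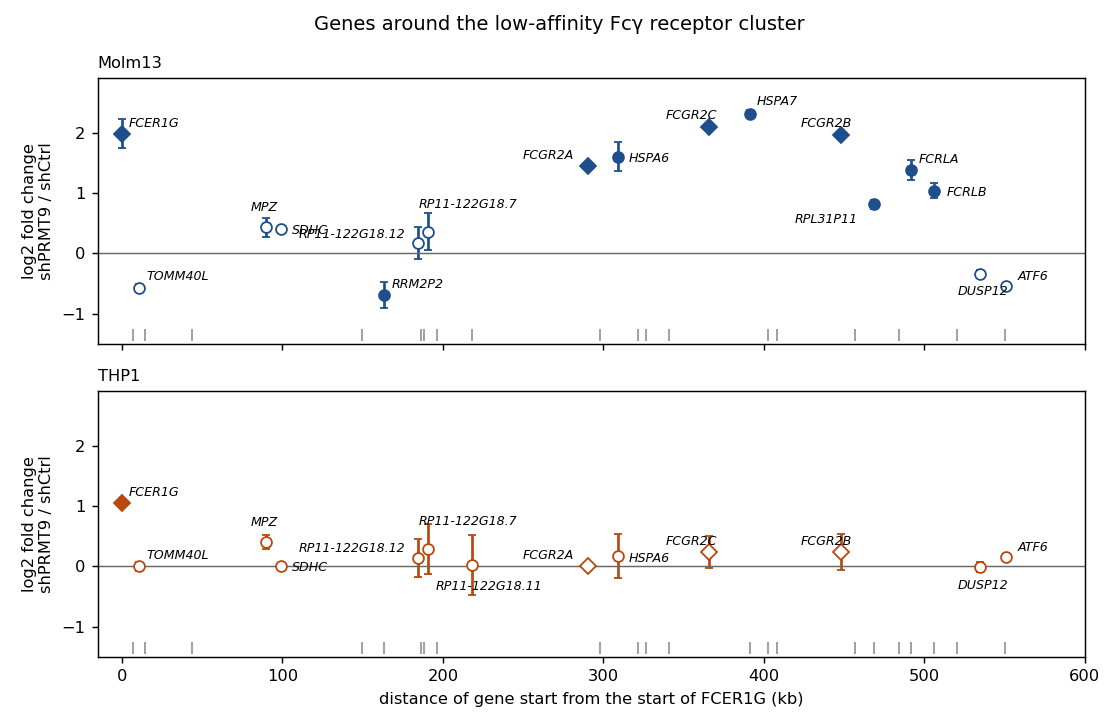
Log2 fold change of shPRMT9 against shCtrl with its standard error by distance of the gene start from that of *FCER1G* in kb, for Molm13 (top) and THP1 (bottom). Diamonds are Fc receptor genes, circles other genes, filled symbols DEGs and ticks genes with too few counts for a test. In Molm13 the tested genes from *FCGR2A* to *FCRLB* lie between 0.81 and 2.31, while *FCER1G* at 1.05 is the only DEG in THP1.

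Other Fc receptor and Fc-binding genes were mostly silent. Of 17 in the tables, 7 were tested in Molm13, of which 4 rose as DEGs, namely *FCRLA*, *FCRLB*, the IgM receptor gene *FCMR* (log2 fold change 1.46) and *TRIM21* (1.12), against 11.4% of all genes. *MS4A2*, the β chain of the mast cell IgE receptor, went the other way at a low level, with 18 and 17 counts in shCtrl Molm13 and 8 and 3 after KD (log2 fold change -1.65 ± 0.48, edgeR FDR = 0.0026, under 1 RPKM). *TRIM21* encodes a cytosolic antibody receptor and ubiquitin ligase. It had 530 and 536 counts in shCtrl Molm13 and 1018 and 1306 after KD, and 1189 and 1208 in shCtrl THP1 and 2197 and 2035 after KD (log2 fold change 0.91). It was the only DEG among 4 tested in THP1, where 6.22% of all genes tested were DEGs. *FCER1A*, the chain that binds IgE in mast cells, had at most 3 counts in any library, and *FCGR3B*, the neutrophil receptor, at most 2.

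*TYROBP* and *OSCAR*, which use the ITAM route, rose in both lines. *TYROBP*, which encodes the ITAM adaptor DAP12, had 346 and 292 counts in shCtrl Molm13 and 746 and 788 after KD, and 545 and 544 in shCtrl THP1 and 927 and 967 after KD. Its log2 fold change was 1.27 ± 0.07 in Molm13 and 0.89 ± 0.07 in THP1. *CD247*, the ITAM chain of T and NK cells, had at most 4 counts. Of 12 receptors known to pair with FCER1G, 4 were tested in each line, of which 2 rose in Molm13 and 1 in THP1 as DEGs. Over all genes tested, 11.4% rose in Molm13 and 3.83% in THP1. *LILRA1* (log2 fold change -0.10), *LILRA2* (-0.03) and *LILRA5* (0.74) were no DEGs in THP1. The collagen receptor gene *OSCAR* rose in both lines, with 28 and 33 counts in shCtrl Molm13 and 106 and 103 after KD, and 20 and 14 in shCtrl THP1 and 48 and 53 after KD (log2 fold changes 1.77 ± 0.20 and 1.66 ± 0.30).

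Downstream of the receptors, 60 genes in 5 roles were followed. In Molm13, 21 of 59 tested rose and 0 fell as DEGs by edgeR and by DESeq2, against 11.4% up and 11.3% down over all genes. At an unadjusted p below 0.05, 38 rose and 13 fell, and the list's median log2 fold change was 0.32. In THP1, 5 of 60 tested rose and 1 fell, against 3.83% up and 2.39% down over all genes, with a median of 0.09. The median over all genes tested was 0 in Molm13 and -0.001 in THP1.

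Src-family kinases phosphorylate the ITAM and recruit SYK. *SRC* rose in both lines, from 133 and 135 counts to 289 and 321 in Molm13 and from 112 and 125 to 197 and 184 in THP1 (log2 fold changes 1.19 ± 0.10 and 0.78 ± 0.13). *FGR* rose in Molm13 (0.82). It was also higher in THP1 (0.91 ± 0.34, edgeR FDR = 0.034) but stayed under 1 RPKM there. The *FGR* difference between the lines was 0.10 ± 0.33 (edgeR FDR = 0.9). *SYK* itself was abundant, with 2967 and 2872 counts in shCtrl Molm13 and 2589 and 3040 after KD, and was no DEG in either line.

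Among the adaptors, *BLNK*, which links SYK to phospholipase C, rose from 181 and 179 counts to 514 and 569 in Molm13 (log2 fold change 1.59 ± 0.08), as did *LAT2* (0.66) and *LCP2* (0.68). In THP1, 0 of 10 adaptors were DEGs by edgeR or DESeq2, against 6.22% of all genes tested by edgeR. At an unadjusted p below 0.05, 3 adaptors were higher and 4 lower. *BLNK* was among the higher there, with 22 and 27 counts in shCtrl and 40 and 87 after KD (log2 fold change 1.47 ± 0.31, edgeR FDR = 0.00038), and missed the call at 0.959 RPKM. Its difference between the lines was -0.11 ± 0.30 (edgeR FDR = 0.85). Of the 16 lipid and calcium enzymes, *PLCG2* (0.78), *PIK3CB* (0.64), *PIK3R5* (0.90) and *PLD2* (0.97) rose in Molm13, and *PIK3CB* (0.86) and *PLD2* (0.71) in THP1.

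Of 13 genes for GTPases and actin regulators of phagocytosis, 5 rose in Molm13 and 1 in THP1, against 11.4% and 3.83% of all genes. Lower by FDR alone in Molm13 were *CRKL* (log2 fold change -0.58), *VAV2* (-0.29), *RAC1* (-0.28) and *VAV3* (-0.27). *MYO1G*, a myosin of phagocytic cups, rose from 2328 and 2378 counts to 6160 and 7091 in Molm13 and from 650 and 620 to 1095 and 1026 in THP1 (log2 fold changes 1.49 ± 0.03 and 0.83 ± 0.07). *RAC2*, the GTPase of the phagocyte oxidase, rose from 5347 and 5130 counts to 10083 and 11751 in Molm13 only as a DEG (log2 fold change 1.06), and its difference between the lines was -1.10 ± 0.04.

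Of 12 inhibitors of Fc receptor signalling, 6 rose in Molm13, where 11.4% of all genes did. By FDR alone 3 were lower there, by less than the fold limit, namely *PTPN11*, the gene for the phosphatase SHP-2 (log2 fold change -0.50), *CBL* (-0.22) and *CSK* (-0.11). In THP1, 0 rose by edgeR or DESeq2, 5 were higher at an unadjusted p below 0.05, and 1 fell by edgeR. Over all genes tested in THP1, 3.83% rose and 2.39% fell as DEGs. *INPP5D* encodes the lipid phosphatase SHIP1, the main effector of FCGR2B, and had 6049 and 5828 counts in shCtrl Molm13 and 10911 and 12559 after KD (log2 fold change 0.98 ± 0.03). *PTPN6*, the gene for the phosphatase SHP-1, rose by less (0.61), and *CBLB*, *DOK2* and *PTPRC* by 1.10, 0.86 and 0.90. *CD300A*, an inhibitory receptor gene, rose in Molm13 from 439 and 378 counts to 1267 and 1474 and fell in THP1 from 86 and 75 to 45 and 41 (log2 fold changes 1.75 ± 0.06 and -0.81 ± 0.21). By DESeq2 the fall in THP1 had an FDR of 0.051. In the test of the difference between the lines, 7 of the 12 had the lower change in THP1 and 1 the higher, as DEGs. Over all genes tested, 8.78% had the lower change in THP1 and 9.01% the higher.

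**Figure D5:**
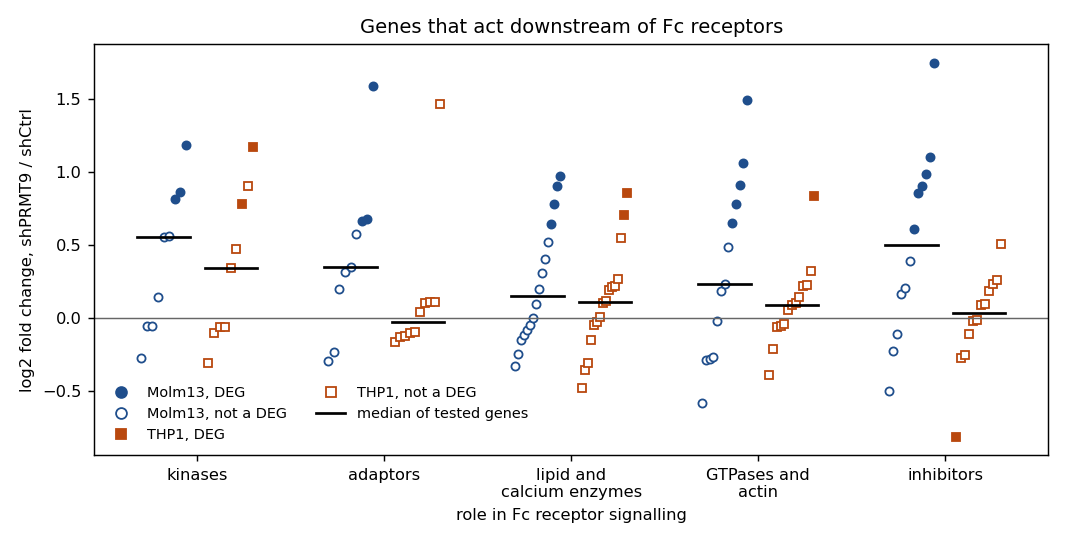
Log2 fold change of shPRMT9 against shCtrl for genes downstream of Fc receptors, grouped by role, circles for Molm13 and squares for THP1, filled for DEGs, with a bar at the median of the genes tested. Filled symbols in Molm13 all lie above 0, with 6 among the inhibitors, and *CD300A* at -0.81 in THP1 is the only filled symbol below 0.

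Several myeloid markers moved with these results. Of the 13 monocyte and myeloid markers, 4 of 10 tested rose as DEGs in Molm13, and 6 of 12 tested rose and 1 fell in THP1. Over all genes tested, 11.4% rose and 11.3% fell as DEGs in Molm13, and 3.83% rose and 2.39% fell in THP1. The summed level of all 13 was 1630 to 1640 CPM in shCtrl Molm13 and 2300 to 2320 after KD, and 2740 to 2760 in shCtrl THP1 and 4070 to 4230 after KD. *LYZ* alone made up 998 CPM of it after KD in Molm13 and 3100 CPM in THP1. *ITGAM*, which encodes CD11b, had 630 and 574 counts in shCtrl Molm13 and 2172 and 2486 after KD, and *CSF1R* had 307 and 280 in shCtrl and 1144 and 1297 after KD. In THP1, *CD14* rose from 24 counts in each shCtrl library to 116 and 122 after KD (log2 fold change 2.40). *CD163* was higher there too (2.84, edgeR FDR = 2.5e-10) but stayed under 1 RPKM. *MPO*, the gene for myeloperoxidase of earlier myeloid cells, went the other way, at a log2 fold change of -0.82 as a DEG in THP1 and of -0.56, below the fold limit, in Molm13. *VCAN* had a log2 fold change of -0.08 in Molm13, and *CEBPA* (-0.13) and *FLT3* (-0.16) were slightly lower in THP1 by FDR alone. In Molm13 *CEBPA* (0.20) and *FLT3* (0.28) were slightly higher by FDR alone. The part of these markers in the Fc receptor result was not tested. In bulk RNA more cells of a type and more RNA per cell cannot be told apart. Markers of T cells, mast cells, platelets and dendritic cells summed to at most 3.44 CPM in each library, and those of neutrophils to at most 26.5 CPM, mostly *CXCR2* in THP1. Of the 7 NK-cell markers, *NCAM1* made up most of the sum of 169 to 226 CPM over the 4 groups, while *KLRF1* and *NCR1* were at or near 0 in Molm13. *SPI1*, the PU.1 gene, had a log2 fold change of 0.47 in Molm13 and 0.42 in THP1, by FDR alone and below the fold limit in both.

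Over the 8 libraries, the gene with the level pattern most like *FCER1G* was *IGSF6*, a myeloid immunoglobulin-type receptor gene, with a root mean square difference of 0.249 in log2 CPM centred on each gene's mean. *H1F0* (0.282), *PRAME* (0.323), *SESN3* (0.364) and *LRRC3* (0.373) followed among 15257 genes. *FCGR1A*, which varied little, was closest to *SUCLG1* (0.048), *ZNF519*, *PDHA1*, *TIMM8A* and *GTF3C4* (up to 0.066).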

How the data were processed

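Total RNA with an integrity number above 8 was sequenced as polyA libraries on an Illumina HiSeq system. The submitters' processing notes name TopHat2 2.0.8, HTSeq 0.11.2, edgeR 3.30.3 and hg38, while annotation and strand setting are not given in the sources used here. The authors deposited raw read counts per gene, without normalization, in one table per line. Of the Molm13 identifiers, 57388 occur in GENCODE 29, 96.3% with the same start and end, and so do all 10 members. Genes of the THP1 table were matched by identifier.

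Counts were analysed with edgeR 4.0.16 in R 4.3.3 (TMM, filterByExpr, quasi-likelihood test, Benjamini-Hochberg adjustment over all genes tested), with DESeq2 1.42.0 as an alternative. TMM factors were 0.985 to 1.017. Each line was fitted alone, while the difference between lines and the shCtrl contrast came from one fit of 8 libraries. DEG limits follow the study's methods, whose upper fold limit was read as above 1.5. The SE of a log2 fold change was taken as its size over the root of the F value, and 95% intervals take normal quantiles of it. Floors cover counting error only. Duplicate libraries were looked for by chi-square per gene, which was 1.35 to 2.17 within groups, so that none was merged.

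On simulated counts with 200 genes changed 2-fold, 187 passed an FDR below 0.05 in the right direction in the Molm13 fit and 185 in THP1. For the difference between lines 162 passed and for the shCtrl contrast 179, with 8, 6, 15 and 9 unchanged genes passing, in that order. No fold or RPKM limit was applied, and the changed genes were drawn from those above a minimum mean count. These figures thus do not describe the DEG calls or members with few counts. In the data far more genes changed, as 66.9% passed by FDR alone in Molm13. The members, the lists and the tests were chosen with earlier results of these data known. The named genes are the members and *PRMT9*, from each list those changed over 2-fold (at most 4 per list and line) and those the background explains, and the 5 genes closest to *FCGR1A* and *FCER1G*. Some genes of the lists are not reported here. Other list genes, the markers and the chromosome 1 neighbours were named after their values were seen. Alternatives tried were other normalizations, filters, limits and tests, near-identical genes summed, a replicate block, and leaving out each library.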

Additional observations from a re-analysis of the deposited data

Results flagged for a closer look

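The effect of *PRMT9* KD differed between Molm13 and THP1, by the test of the difference itself (edgeR, 8 libraries), for 5 Fc receptor genes. As the log2 fold change in THP1 minus that in Molm13, the difference was -1.43 for *FCGR2A*, -1.72 for *FCGR2B*, -1.85 for *FCGR2C*, -0.92 for *FCER1G* and -1.2 for *FCGRT*. *FCGR2B* and *FCGR2C* had at most 39 counts in any THP1 library, against at least 658 in Molm13. *FCER1G* had 17 to 95 counts in Molm13 and 850 to 1768 in THP1. With 2 libraries per group, no group was large enough to look for a library standing apart.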

How the results depend on the processing

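Of 439 alternative fits of single members, 435 left the call as it was and none reversed a called change. Estimates that were no DEGs took the other sign in 12 alternatives for 5 results, from -0.359 to 0.173. The 6 members called in Molm13 stayed 6 and the 1 in THP1 stayed 1 without any one library, while the signalling count ranged from 21 to 23 in Molm13 and from 5 to 7 in THP1, the count of differences between lines from 4 to 5 and that of the shCtrl contrast from 6 to 6. With no fold limit, 51 signalling genes passed in Molm13 and 38 in THP1, with 3 members in THP1. With a fold limit of 2 they were 6 and 1. With no RPKM minimum, or one fit of all 8 libraries, 2 members were called in THP1, where *FCER2* then joined *FCER1G* (0.91 in the latter). With near-identical genes summed, the 6 members called in Molm13 became 4 and the 5 differences between lines became 3, since the *FCGR2* genes then count once. The shCtrl contrast of *FCGR1B* was then 0.12 (edgeR FDR = 0.22) and that of *FCGR2A* -2.08. Same-numbered libraries did not deviate together (r = -0.084 and -0.018). With so few libraries this could miss a shared effect, so pairing by number is not excluded. With the replicate block 6 members were called in Molm13, 1 in THP1, 5 for the difference between lines and 6 for the shCtrl contrast. Genes under about 30 counts, such as *FCGR2B* in THP1, limit what small changes could be seen.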
